A study of Bos taurus with 2 samples.

Results

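The 1 kb windows of the bovine autosomes that were clearly more methylated in the sperm of Bull2 than in that of its twin Bull1 numbered 2251 of 1856975 eligible windows, or 0.121%. A window was eligible when it held at least 5 CpG sites covered by 5 or more reads in both libraries, with a mean coverage of at most 100 reads per site. Its methylation level was the share of methylated reads among the summed reads of those sites, and a window was a member when the Bull2 level exceeded the Bull1 level by more than 15 percentage points. The measured levels themselves chose these windows, so their levels and differences are a description and carry no test.

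Bull1 and Bull2 are monozygotic twin Holstein bulls used for artificial insemination, which differed moderately in semen quality. Sperm DNA from frozen semen of both bulls, taken at 72 months of age on days of 1 week, underwent whole-genome bisulfite sequencing (WGBS), in which bisulfite converts unmethylated cytosines so that the cytosines still read as such count as methylated. Each bull gave 1 library, so there was no spread between replicates, and a difference below is one between libraries that cannot be told apart from one between collections. Neither bull carried a treatment or a genetic change, and the labels named no other sample of either.

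In mammals, DNA methylation sits mostly on CpG dinucleotides and is laid down anew in the male germ line before sperm mature. Most of the sperm genome is highly methylated, while CpG islands and many promoters of active or housekeeping genes are left without methylation. A level between these extremes means that a part of the molecules carried the mark, or that a stretch joined methylated and unmethylated sites.

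The files of both libraries listed the same 27203217 CpG sites, at a mean of 20.01 reads per site in Bull1 and 18.4 in Bull2. The study reports the opposite order by its own measure, with a higher average read depth for Bull2 than for Bull1. Over all eligible windows the Bull2 level was lower, with a median difference of -3.92 points, and it was the higher one in 19.7% of windows. The opposite set, more than 15 points higher in Bull1, held 31609 windows or 1.70%. The members are thus the rarer side of a distribution centred below 0.

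The member windows were mostly of intermediate methylation. Their Bull1 levels ran from 0 to 84.6% with a median of 47.1%, and the quartiles were 32.2 and 60.7%. Their Bull2 levels ran from 16.7 to 100% and had a median of 65.8%, the quartiles being 50.6 and 78.5%. All eligible windows had medians of 88.7% in Bull1 and 84.1% in Bull2. A Bull1 level between 20 and 80% was found in 2011 members (89.3%), against 17.6% of all eligible windows and 25.7% of the opposite set. With both levels between 20 and 80% there were 1530 members (68.0%), against 16.1 and 24.3%. In the opposite set Bull1 is the higher library by the rule, so the contrast in Bull1 levels is partly built in. The lower level there, that of Bull2, had a median of 71.4% and quartiles of 61.2 and 76.5%. By the average of both levels, the opposite set was also most frequent at intermediate values. It made up 4.94% of windows from 50 to 60% and 1.49% from 80 to 90%. The rule bars high Bull1 levels from the members, since a level above 85% leaves no room for a rise of 15 points. The lower end is not barred. There, 43 of 32839 windows with a Bull1 level under 10% were members (0.131%), near the 0.121% of all eligible windows. The share was 1.92% of windows with Bull1 levels from 30 to 40%, 1.27% from 50 to 60% and 0.128% from 70 to 80%. In the plot of levels, the members form a thin band above the dense cloud of windows and thin out toward both ends.

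**Figure D1:**
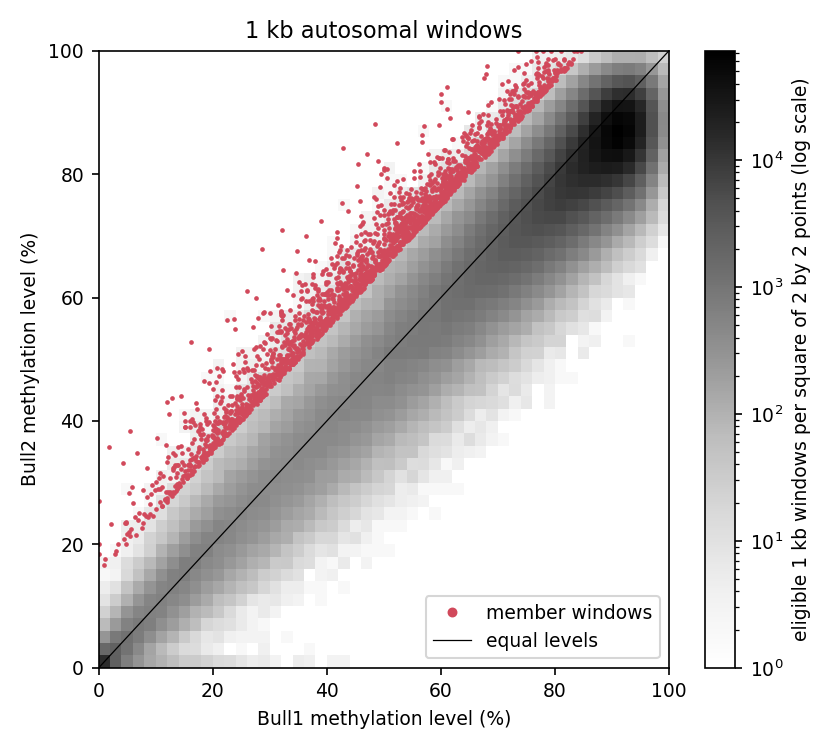
Methylation level of 1 kb autosomal windows in Bull1 (horizontal axis, %) and Bull2 (vertical axis, %), with all eligible windows as a grey density on a log scale and the 2251 members as red points. The members lie along the edge of the rule, most of them at Bull1 levels between 20 and 80%, while most eligible windows lie near the top right corner.

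The differences were concentrated near the threshold. Their median was 17.2 points, with quartiles of 15.9 and 19.4 and a highest value of 41.4. Of the members, 618 differed by 15 to 16 points, 482 by more than 20 points and 34 by more than 30 points (0.00183% of all eligible windows). In the opposite set 208 windows passed 30 points (0.0112%). Just inside the threshold at good coverage, chr5:112965001-112966000 had a level of 75.5% in Bull1 and 90.5% in Bull2. Just outside it, chr1:90111001-90112000 had 68.9 and 83.9%, which did not exceed the threshold.

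The counts behind a member were modest. Members had a median mean coverage of 15.3 reads per CpG in Bull1 and 13.3 in Bull2, against 21.4 and 18.5 over all eligible windows. They held a median of 10 listed CpGs, of which 8 were used, and 504 members rested on exactly 5. Exact Clopper-Pearson 95% intervals of the summed reads did not overlap in 1244 of 2251 members, while 0.257% of all eligible windows were separated in this way with Bull2 higher. These intervals cover counting error only and treat reads at neighbouring CpGs as independent, although 1 fragment often spans several sites. When the mean coverage of the window was taken as the number of molecules, the intervals were separated in 1 member, against 5.39e-05% of all eligible windows, and with Bull1 higher in 0.000215%. That window, chr14:183001-184000, is named because it was the only one, after its values were seen. It had a level of 42.6% in Bull1 and 64.7% in Bull2, at mean coverages of 99.6 and 83.2, and it lay just under the coverage limit of 100. Its 5 CpGs gave a difference of 6.43 points when averaged without weights. A single site had 96 reads in Bull1 and 261 in Bull2, with levels of 70.8 and 75.5%. At this depth, all other members had overlapping intervals by that count.

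The share of windows that were members fell steadily with depth. It was 0.916% where the lower of the mean coverages was 5 to 7.5 reads, 0.361% at 7.5 to 10 reads, 0.0893% at 15 to 20 reads and 0.0383% at 20 reads or more. The opposite set fell less steeply, from 3.91 to 1.07% over the same range. Of the members, 1550 had a mean coverage of at least 10 reads in both libraries (68.9%), against 92.4% of all eligible windows. The part of read depth in the number of members was not tested.

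**Figure D2:**
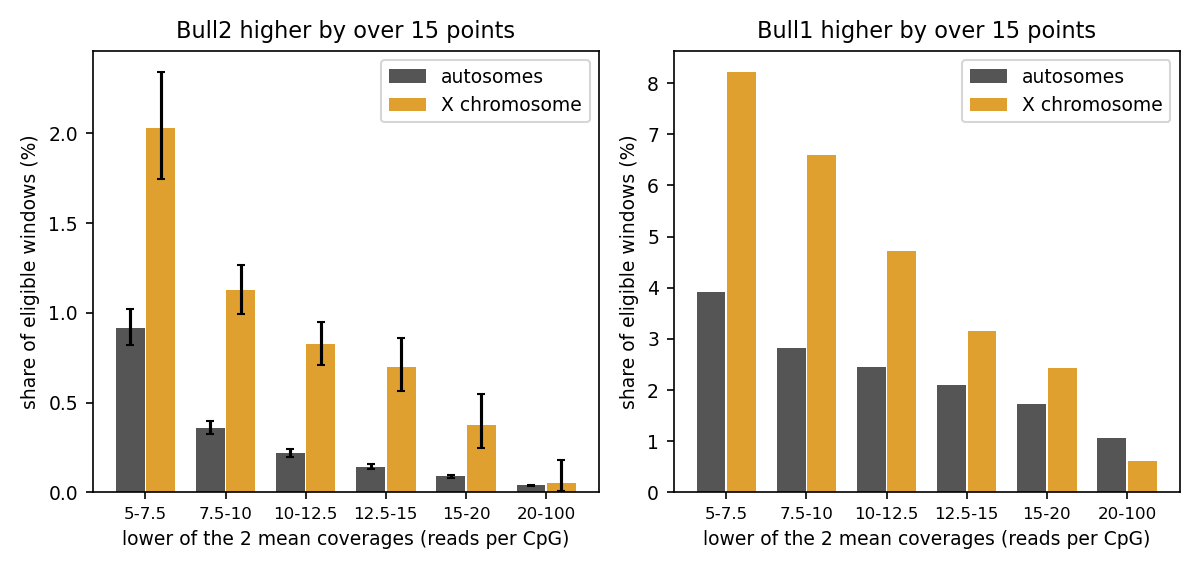
Share of eligible 1 kb windows (%, vertical axis) that were more than 15 points higher in Bull2 (left) or in Bull1 (right), by the lower of the 2 mean coverages (reads per CpG), for autosomes (grey) and the X chromosome (orange). Error bars on the left are exact 95% binomial intervals that treat windows as independent. On autosomes the left share falls from 0.916 to 0.0383%, and on X from 2.03 to 0.0493%.

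A summed level gives more weight to deeply covered sites, so each member was also described by the plain mean of its CpG levels, a split added after seeing the data. By that average 1067 members still differed by more than 15 points, while 0.0990% of all eligible windows did. A further 767 members differed by 5 to 15 points, 296 by 0 to 5 points, and 121 had an equal or lower Bull2 level. In all, 417 members (18.5%) were at or below 5 points, against 3.81% of the opposite set counted in its own direction. In those 417 windows the CpG levels within Bull1 had a median standard deviation of 35.9 points, and the most deeply covered site had a median of 2.56 times the reads of the shallowest in Bull1 and 3.75 times in Bull2. In the 1067 windows the same values were 16.5 points, 2.13 times and 2.25 times. The windows where the averages part thus had more spread between CpG levels, and a wider range of depth mainly in Bull2.

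**Figure D3:**
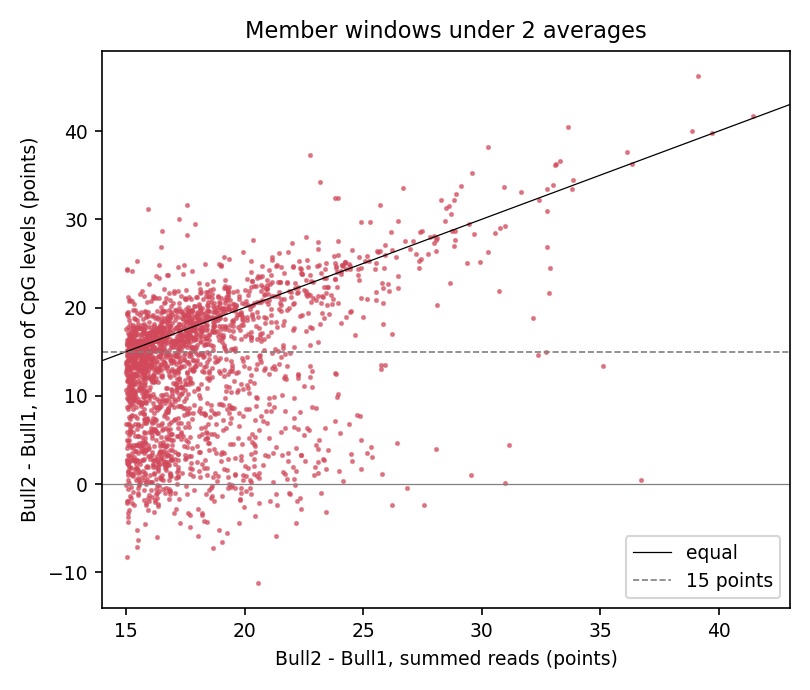
Difference between Bull2 and Bull1 in each member window (points) by summed reads (horizontal axis) and by the mean of CpG levels (vertical axis), with the line of equal values. Points above the dashed line are the 1067 members over 15 points by both averages, and 121 members lie at or below 0 on the vertical axis.

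Single CpGs of the members leaned the same way. Of 23614 used sites, 16747 (70.9%) had a higher level in Bull2 and 4243 a lower one, whereas 32.5% of all used autosomal sites were higher in Bull2. Every used CpG was higher in Bull2 in 327 members (14.5%), which had a median of 6 used sites. In 126 members more sites were lower than higher. These sites entered the rule and give no independent support.

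CpGs of the same windows that were left out by the rule, because fewer than 5 reads covered them in a library, gave a smaller difference. In the members, 12416 such sites had a pooled level of 40.9% in Bull1 (exact 95% bounds of 40.5 and 41.3) and 47.3% in Bull2 (bounds of 46.8 and 47.7), a difference of 6.40 points. The used sites of the same windows had 43.8 and 62.1%. Over all eligible windows, the left-out sites had 52.9% in Bull1 and 45.5% in Bull2, a difference of -7.31 points. Among 705 members with at least 3 left-out sites, Bull2 was higher in 396 (56.2%), with a median difference of 2.18 points, whereas Bull2 was higher in 38.4% of all eligible windows with that many. The left-out sites share windows, and can share fragments, with the sites that chose the members, so they give no independent support.

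The difference ended at the window borders. The windows directly beside the members had median levels of 76.8% in Bull1 and 74.0% in Bull2, and the median difference over 3351 of them was -2.36 points with quartiles of -5.96 and 0.922. Bull2 was higher in 32.02% of them, and 22 were members themselves. At 2 kb the median difference was -3.29 points, and at 5 to 10 kb it was -3.46 points, with Bull2 higher in 24.2%. Beside the opposite set the left neighbours had a median of -4.01 points. In the profile of single CpGs, the mean difference was between 11.01 and 15.5 points in every 100 bp step inside the windows. It was 0.34 and 0.23 points in the steps just outside, and below -1 point in every step farther out, up to 3 kb from the centre. Each border of this profile is set by the rule, since the sites inside chose the window and those outside did not.

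**Figure D4:**
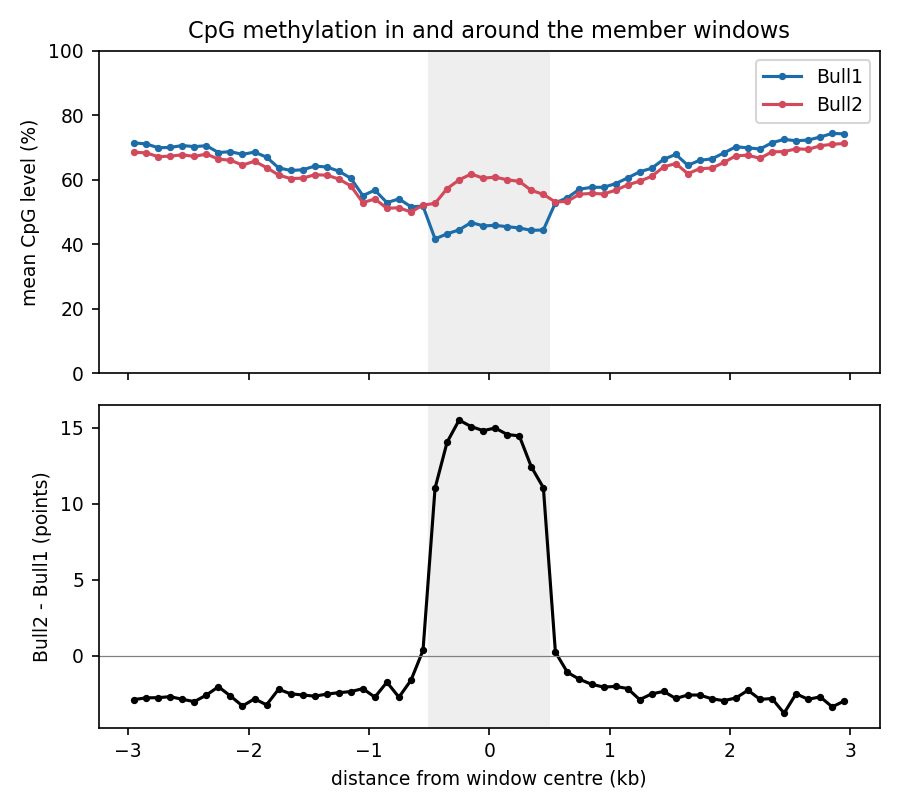
Mean CpG level in Bull1 and Bull2 (%, upper panel) and their difference (Bull2 minus Bull1, points, lower panel) in 100 bp steps by distance from the centre of the member windows (kb), with the window shaded. The difference is 11.01 to 15.5 points inside the window and close to or below 0 outside. From the window outward the Bull1 level rises, while the Bull2 level first falls and then rises.

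Members lay at changes of methylation along the chromosome in a larger share than other windows. Both neighbours were eligible for 1305 members. In 305 of these (23.4%) the Bull1 level was under 30% on one side and at least 70% on the other, against 4.26% of all eligible windows and 6.83% of the opposite set. Both sides were at least 70% methylated in 504 (38.6%), against 83.6 and 75.7%, and both were under 30% in 25 (1.92%), against 1.15 and 0.710%. Windows at such borders also have intermediate levels, and the part of the level in this count was not tested.

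Most members had no other member beside them. Of all members, 22 (0.977%) touched another member, in 11 pairs, and no run was longer than 2 windows. Among the eligible neighbours of members 0.657% were members, against 0.121% of all eligible windows, a share added after seeing the data. In the opposite set, which is the larger one, 1104 windows (3.49%) touched another of the set, and 2.44% of the eligible neighbours belonged to it, against 1.70% of all eligible windows. Another member lay within 10 kb of 137 members (6.09%), against 25.3% in the opposite set, a count that grows with the size of a set. The members were spread over 1329 of 2529 blocks of 1 Mb, of which 804 held 1 member and 44 held at least 5.

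Along chromosomes, the share was highest on chromosome 25, with 75 of 38001 windows (0.197%), and lowest on chromosome 11, with 63 of 81787 (0.0770%). The median coverage of eligible windows was lower on chromosome 25, at 18.7 reads per CpG in Bull1 and 15.6 in Bull2, than on chromosome 11, at 20.9 and 17.9. The first 1 Mb of the chromosomes held 72 members (3.20%) and the last 1 Mb held 62 (2.75%), against 1.07 and 1.43% of all eligible windows. The block with most members was chr19:1000001-2000000, where 14 of 445 eligible windows were members (3.15%) and 10 belonged to the opposite set. The block as a whole had median levels of 50.8% in Bull1 and 51.1% in Bull2, far below the autosomal medians. Its 14 members had Bull1 levels of 9.46 to 57.5% and Bull2 levels of 24.7 to 73.4%. This block and the chromosome ends were looked at after the data had been seen.

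Members were more frequent among the windows richest in CpGs. Windows with at least 30 listed CpGs made up 326 members (14.5%), against 5.58% of all eligible windows and 4.05% of the opposite set. By number of listed CpGs the member share was 0.154% at 5 or 6, 0.0844% at 10 to 14 and 0.318% at 50 or more. At least 1 listed CpG was left out for low coverage in 46.6% of members, against 17.1% of all eligible windows. A recurring order of CpG spacings, taken as the same 5 distances between 6 neighbouring sites found at least 10 times in the genome, occurred in 423 of 1915 members with 6 or more listed sites (22.1%), a measure added after seeing the data. It occurred in 12.8% of all eligible windows and 13.99% of the opposite set. Among windows with 20 or more listed sites the shares were 40.1, 27.7 and 37.2%. Patterns found at least 1000 times occurred in 2.98% of members and 2.74% of all eligible windows with 6 or more listed sites, and in 2.02 and 3.77% of those with 20 or more.

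A strongly unequal depth of the libraries was found in few members, but in a larger share of them than of all eligible windows. The ratio of Bull2 to Bull1 coverage had a median of 0.903, against 0.883 over all eligible windows. It exceeded 1.5 in 107 members (4.75%), against 1.55% of all eligible windows and 2.77% of the opposite set. It fell under 0.5 in 51 members (2.27%), against 0.679% of all eligible windows and 2.01% of the opposite set. The part of unequal depth in the member differences was not tested.

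The named windows that follow show the values behind these counts. They are the 10 with the largest difference among members with at least 10 used CpGs and a mean coverage of at least 10 reads in both libraries, 5 of the 11 runs of adjacent members, and the extremes of the coverage ratio. As all runs were 2 windows long, the 5 with the largest pooled difference were taken. Stretches within the named windows were picked after their values had been seen. All positions are in build UMD3.1 as the deposited files list them. Genes were named only where the gene assignment of the study covered the window, because no annotation of this build was used here.

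In 3 of the 10 windows every used CpG was higher in Bull2. The first, chr6:50716001-50717000, had 12 CpGs within 211 bp. Its level was 21.6% in Bull1 (69 of 319 reads, exact 95% bounds of 17.2 and 26.6) and 48.4% in Bull2 (107 of 221 reads, bounds of 41.7 and 55.2). Single sites lay between 13.3 and 32% in Bull1 and between 38.1 and 66.7% in Bull2, so the site levels of the libraries did not overlap. These sites lie close enough to share fragments. With the mean coverage as the number of molecules, the bounds overlapped, at 8.62 and 42.3 in Bull1 and 26.0 and 74.0 in Bull2. At the second, chr3:12559001-12560000, the level was 41.4% in Bull1 (55 of 133 reads) and 68.8% in Bull2 (95 of 138 reads), over 11 CpGs. The neighbour to its right had 96.0 and 88.9%. The third, chr19:1166001-1167000, is inside the block with most members. Its level was 35.4% in Bull1 (90 of 254 reads) and 61.1% in Bull2 (127 of 208 reads). A pair of neighbouring sites at 758 and 773 bp from its start had 8 methylated of 42 reads in Bull1 and 16 of 20 in Bull2.

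At chr18:60654001-60655000, 11 of 12 CpGs were higher in Bull2. The window had a level of 31.9% in Bull1 (45 of 141 reads) and 57.9% in Bull2 (70 of 121 reads). Its neighbours had 52.3 and 46.1% on the left and 45.2 and 47.0% on the right, so they differed by far less than the window.

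The window chr13:82262001-82263000 held a short stretch with a much larger difference than its average. Over its 40 used CpGs the level was 51.8% in Bull1 (348 of 672 reads) and 78.2% in Bull2 (320 of 409 reads). From 150 to 300 bp after its start, 15 CpGs had 29.7% in Bull1 (78 of 263 reads, exact 95% bounds of 24.2 and 35.6) and 87.7% in Bull2 (107 of 122 reads, bounds of 80.5 and 93.0). All 15 were higher in Bull2, at a mean coverage of 17.5 and 8.13 reads. The 4 CpGs before the stretch had a pooled level of 54.5% in Bull1 and 39.1% in Bull2, and 1 of them was higher in Bull2. The 21 CpGs after it had 71.0 and 80.9%. With a minimum of 10 reads, 14 CpGs of the window were left and its difference fell to 15 points, which no longer exceeded the threshold. The stretch was picked by eye from these values and is shorter than the library fragments of 200 to 300 bp, so its sites share molecules.

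The window chr19:33854001-33855000 had the second largest difference of the 10 and the highest ratio of Bull2 to Bull1 coverage of all members with at least 10 used CpGs. The gene assignment of the study places an exon of UBB here, a gene that encodes ubiquitin as repeated units in a row. Its level was 43.8% in Bull1 (279 of 637 reads, exact 95% bounds of 39.9 and 47.8) and 74.1% in Bull2 (1735 of 2342 reads, bounds of 72.3 and 75.8). The mean coverage was 19.9 reads in Bull1 and 73.2 in Bull2, a ratio of 3.68. In the first 500 bp all 17 CpGs were higher in Bull2, with pooled levels of 53.0 and 85.6% and a mean of 98.5 reads in Bull2. Beyond them 3 CpGs were lower in Bull2, and the largest such difference was at 501 bp from the start, with 18 methylated of 32 reads in Bull1 and 6 of 122 in Bull2. Toward the end of the window the level fell to 0 in Bull2, and the next window had 0.472 and 0.174%. The part of the unequal depth in the difference was not tested.

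**Figure D5:**
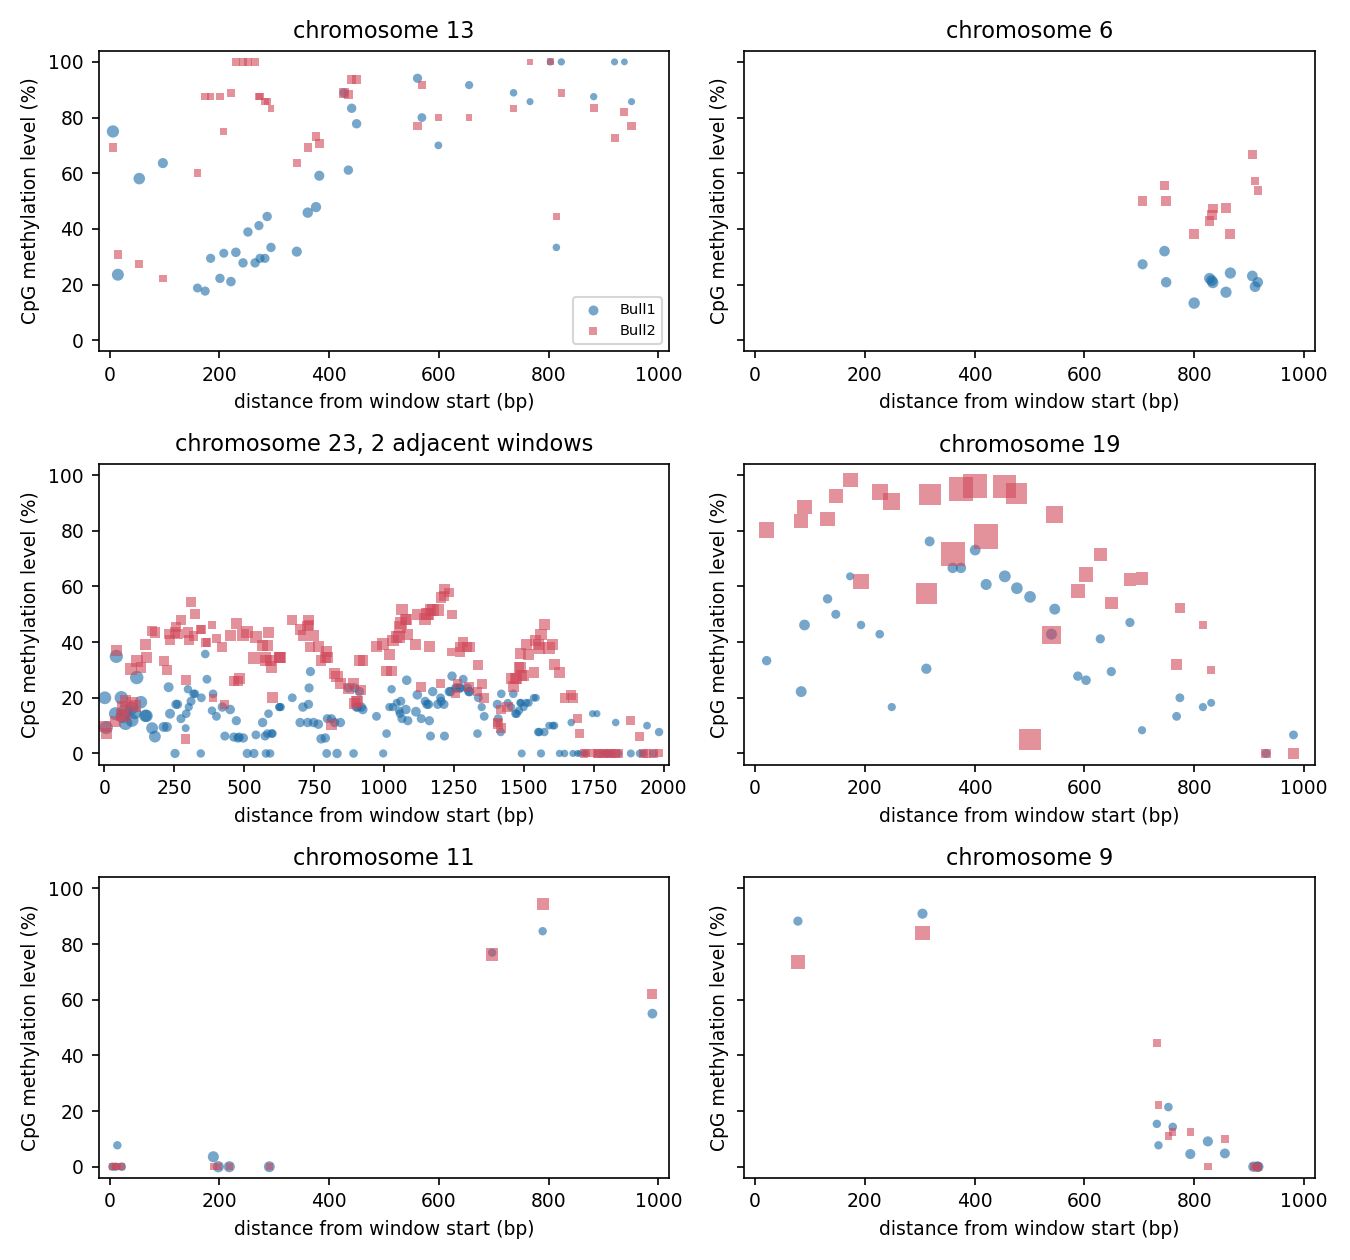
Methylation level of each used CpG (%, vertical axis) by distance from the window start (bp) in Bull1 (blue circles) and Bull2 (red squares), with larger symbols for more reads, in 6 panels named by chromosome. On chromosomes 13, 6, 23 and 19 runs of neighbouring sites were higher in Bull2, while on chromosomes 11 and 9 most sites lay close together in level and differed in reads.

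In 4 of the 10 windows the difference by summed reads was above 24 points, while the plain mean of the CpG levels differed by less than 4 points. The largest difference of the 10, at chr11:74110001-74111000, was one of these. Its level was 16.1% in Bull1 (34 of 211 reads) and 52.8% in Bull2 (75 of 142 reads), and the plain means differed by 0.428 points. The 8 CpGs in its first 500 bp were at 1.21% in Bull1 (2 of 165 reads) and at 0% in Bull2 (0 of 48 reads, exact upper limit 7.40%). The 3 CpGs beyond were at 69.6% in Bull1 (32 of 46 reads) and 79.8% in Bull2 (75 of 94 reads). The unmethylated sites were read at a mean of 20.6 in Bull1 and 6 in Bull2, and the methylated ones at 15.3 and 31.3. Its neighbours were at 0.523 and 2.54% on the left and at 83.8 and 79.1% on the right, so the window spanned a border between low and high methylation.

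The same arrangement held at chr9:15900001-15901000, with a level of 20.5% in Bull1 and 46.3% in Bull2. Its 2 CpGs in the first 500 bp were lower in Bull2, at 89.7 and 78.8%, and had 19.5 and 49.5 reads per site. Its other 10 CpGs were at 6.32 and 10.99%, with 19 and 9.10 reads. At chr15:19021001-19022000, with 55.4 and 80.5%, 9 CpGs were at 90.5 and 95.4%, and the 2 CpGs near its end were at 0% in both. At chr10:36100001-36101000, with 48.3 and 72.9%, 11 CpGs were at 79.3 and 85.4%, and the last 6 were at 5.00 and 6.67%. In each of these windows the unmethylated sites had fewer reads in Bull2 than in Bull1.

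The pair of adjacent members richest in CpGs lay at chr23:27332001-27334000, with 177 used CpGs. The gene assignment of the study places the promoter of HSPA1L, an HSP70 chaperone gene known for its expression in testis, in the second window. The study places the region it reports for HSPA1L also in the first exon of HSPA1A. The level of the pair was 14.2% in Bull1 and 32.6% in Bull2. The first window had 13.98% in Bull1 (258 of 1845 reads, exact 95% bounds of 12.4 and 15.7) and 32.9% in Bull2 (736 of 2237 reads, bounds of 30.96 and 34.9), and 78 of its 88 CpGs were higher in Bull2. The second had 14.5% (168 of 1160 reads, 12.51 and 16.6) and 32.3% (646 of 2002 reads, 30.2 and 34.4), with 69 of 89 CpGs higher. With the mean coverage as the number of molecules, the bounds overlapped in both windows. They were 3.05 and 36.3 in Bull1 and 14.9 and 53.5 in Bull2 in the first window. In the second they were 1.92 and 45.4 in Bull1 and 13.9 and 54.9 in Bull2.

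The difference within this pair had borders of its own. In the first 100 bp, 10 CpGs were at 16.6 and 17.7%. In the remainder of the first window 78 CpGs were at 13.2% in Bull1 and 35.2% in Bull2, and in the first 700 bp of the second window 72 CpGs were at 16.1 and 36.4%. The last 17 CpGs were at 3.33 and 1.28%. The neighbouring windows had 21.4 and 19.02% on the left and 28.7 and 29.9% on the right. Bull2 was thus higher over most of 1 continuous stretch, between ends where the levels differed by 1.17 and -2.06 points. The stretch was also read more deeply in Bull2, with a mean of 18.1 reads per CpG in Bull1 and 24.8 in Bull2 in the first window and 14.03 and 24.5 in the second, whereas the first 100 bp had 43.5 and 29.9 reads. The last 17 CpGs, at 3.33 and 1.28%, had 8.82 and 13.8 reads. The part of depth in the difference was not tested. No other run held more than 29 used CpGs.

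Among the other runs, the pair at chr22:1260001-1262000 had 23.2% in Bull1 and 42.0% in Bull2 over 22 CpGs, and 18 of these were higher in Bull2. Its left neighbour had 89.3 and 84.5% and its right neighbour 80 and 82.2%. Single CpGs of the pair ranged from 0 to 90.9% in Bull1, and the low ones lay around the border between its windows. At chr1:150962001-150964000 the pair had 31.7 and 50%, but the plain means differed by -1.76 points in the first window and by 1.72 in the second. At chr7:79962001-79964000 the pair had 46.9 and 65.1%, with 15 of 21 CpGs higher, and the plain means differed by 9.11 points in the first window and 8.91 in the second. At chr10:31903001-31905000 it had 69.9 and 87.8%, with 14 of 16 CpGs higher, and in its first window the 10-read minimum left 2 of 9 CpGs, with a difference of -5.91 points.

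Extremes of the coverage ratio were taken among members with at least 10 used CpGs, and members with fewer sites reached ratios down to 0.305. After the UBB window, chr29:49549001-49550000 had 81.8% in Bull1 and 97.2% in Bull2 at coverages of 5.50 and 10.6, and only 10 of its 36 listed CpGs were used. Over all its CpGs with at least 1 read the difference fell from 15.4 to 8.10 points. Next, chr5:119477001-119478000 had 76.4 and 93.1% at 5.50 and 10.2 reads, with 20 of 47 CpGs used, and over all its CpGs the difference fell from 16.7 to 4.83 points. At the lowest ratio among these members, chr29:43078001-43079000 had 29.2 and 44.4% at 16.5 and 6.17 reads, with 5 CpGs higher and 11 lower in Bull2.

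The window over the promoter region of PSMD3, a subunit of the regulatory particle of the proteasome, that the study assayed by bisulfite cloning was no member. At chr19:40960001-40961000 its level was 22.4% in Bull1 (123 of 549 reads, bounds of 18.98 and 26.1) and 33.5% in Bull2 (228 of 680 reads, bounds of 29.99 and 37.2), a difference of 11.1 points. The methylation lay in 15 CpGs of its first 500 bp, at 44.1 and 61.0%. From 200 to 500 bp, 11 CpGs were at 25.5% in Bull1 and 55.3% in Bull2, all higher in Bull2, while 4 CpGs before them were at 80% (76 of 95 reads) and 72.7%. The 17 CpGs in its second 500 bp were at 0% in both libraries. These unmethylated sites lowered the window level in both bulls, so that a short stretch with a difference over 15 points stayed under the threshold of a 1 kb window. The study, with its own regions and threshold, reports this promoter as differentially methylated by sequencing and by the cloning.

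The X chromosome, which the rule leaves out, had 746 of 78790 eligible windows more than 15 points higher in Bull2 (0.947%) and 3934 more than 15 points higher in Bull1 (4.99%).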

How the data were processed

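Sperm DNA of both bulls was sequenced as 125 bp paired reads from 200 to 300 bp fragments, 1 library per bull. Per the methods of the study and the submitters' processing notes, reads were trimmed with Trim Galore 0.4.0, checked with FastQC 0.11.2, aligned to UMD3.1 with Bismark and Bowtie2 (0.14.5 is the version given for the pair) and deduplicated. For each CpG the deposited files give the counts of methylated, unmethylated and all reads, which the authors did not normalise, and the level as a fraction, which the authors took as methylated over all reads. The counts added up at every site. The files do not say whether positions count from 0 or 1.

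Only the counts were used, with Python 3.11.15, pandas 2.3.3, numpy 2.4.6 and scipy 1.17.1. Sites were placed in 1000 bp windows, and levels, intervals and neighbours were computed as described above. Window building was tested on simulated data. Total depth was 544424736 site reads in Bull1 and 499287038 in Bull2. With 1 library per bull no test between bulls was run. The members and lists were chosen with earlier results of these data known. Windows were named by rule: the 10 largest differences, the 5 longest runs (all tied at 2 windows and ranked by pooled difference), windows nearest to the threshold, extremes of the coverage ratio and the PSMD3 window. Alternatives changed read and CpG minimums, averaging, window length and threshold. The genome sequence and annotation of UMD3.1 were not used here.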

Additional observations from a re-analysis of the deposited data

Results flagged for a closer look

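The X chromosome lay outside the rule, and 746 of its 78790 eligible windows were more than 15 points higher in Bull2 (0.947%), a count from windows that none of the comparisons of members uses. On autosomes the share was 0.121%. Bull1 was higher by that much in 3934 X windows (4.99%). X windows were read less deeply, at medians of 12.8 and 11.3 reads per CpG, and by the lower mean coverage the X and autosomal shares were 2.03% against 0.916% at 5 to 7.5 reads, 1.12% against 0.361% at 7.5 to 10 reads and 0.376% against 0.0893% at 15 to 20 reads. Windows higher in Bull1 also had a larger share on X in each class under 20 reads, from 8.22% against 3.91% in the first to 2.42% against 1.72% at 15 to 20 reads, and a smaller one at 20 reads or more (0.617% against 1.07%). At 20 reads or more 2 of 4055 X windows passed (0.0493%, exact 95% interval 0.00597 to 0.178%), against 0.0383% on autosomes. Eligible X windows also had fewer used CpGs, a median of 8 against 9. These classes were chosen after seeing the data, and the part of depth in the X share was not tested.

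CpGs of the member windows that the read minimum left out had a pooled difference of 6.40 points, Bull2 above Bull1, and were listed here because the rule did not use these sites. They lie in the same windows, and can lie on the same fragments, as the sites that chose the members, so the value gives no separate support. The same sites over all eligible windows had -7.31 points, and in the opposite set they had -15.1 points.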

How the results depend on the processing

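With 1 library per bull no value has a replicate error, and the depth does not settle how many molecules stand behind a window. No paired analysis was possible because a single library stands for each animal. The count of members was 2251, and it became 3230 with a minimum of 1 read per CpG (0.171% of eligible windows), 1480 with 10 reads (0.0897%), 847 with 10 CpGs (0.0934%), 1838 by plain means (0.0990%), 1550 at a mean coverage of at least 10 (0.0903%) and 2403 with Bull1 thinned to the depth of Bull2 (0.130%). It was 6029 in 500 bp windows (0.312%), 592 in 2 kb windows (0.0493%), 34 above 30 points (0.00183%) and 8182 when counted from the median difference (0.441%). Both averages together, added after seeing the data, gave 1067 (0.0575%). Of the 2251 members, 1832 were kept at 1 read, 880 at 10 reads and 1918 after thinning. Intervals that took the mean coverage as the number of molecules separated 1 member in place of 1244, although a window is longer than a fragment and can hold more molecules than that.

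The median Bull1 level of 47.1% became 45.8% at 1 read, 49.5% at 10 reads, 42.7% with 10 CpGs, 51.6% by plain means and 55.1% from the median difference. The share of members in runs, 0.977%, became 2.23, 0.541, 1.69 and 2.54% at 1 read, at 10 reads, by plain means and from the median difference. The median coverage ratio was 0.875 at 1 read and 0.920 at 10 reads. The median of 10 listed CpGs became 9 at 1 read, 11 at 10 reads, 19 with 10 CpGs, 9 from the median difference and 8 at a mean coverage of at least 10. With alternatives added after seeing the data, the X share was 0.712% at 10 reads and 0.654% at a mean coverage of at least 10, the neighbours had -2.71 points at 10 reads, and the left-out sites 3.61 points.

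The direction turned at 3 named windows: chr1:150962001-150963000 had -1.76 points by plain means and -1.59 at 10 reads, chr10:31903001-31904000 had -5.91 at 10 reads on 2 CpGs, and chr29:43078001-43079000 had -1.40 by plain means. At 10 reads the difference fell to 15 points at chr13:82262001-82263000, 10.2 at chr11:74110001-74111000, 9.21 at chr10:36100001-36101000, 6.79 at chr1:150963001-150964000, 12.6 at chr10:31904001-31905000, 8.63 at chr21:33695001-33696000 and 1.59 at chr6:107416001-107417000. At 10 reads, 3 named windows had no CpG left and gave no value. The other named windows kept a higher level in Bull2, or a difference of 0 at chr14:28625001-28626000, under these 3 alternatives (1 read, 10 reads and plain means). The causes were not tested.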

Other observations

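Above the coverage limit of 100 reads per CpG, 4822 autosomal windows were left out of the rule. Of these, 0 differed by more than 15 points in either direction.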
